A study of Mus musculus with 24 samples.

Results

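Mid1 and 2 genes that lie within it on the other strand, Gm15247 and G530011O06Rik, were examined in nuclear RNA of the mouse hippocampus. They were taken by symbol from the tables of both cell fractions, and all 3 were found among the 55254 genes listed. They were chosen by their low log2 fold changes against WT in earlier comparisons of these same libraries, so that every difference from WT is given below as a description, without a test. Nuclei came from male C57BL/6N mice aged 6 months and were sorted by staining for NeuN, a nuclear protein of most neurons, into NeuN+ nuclei (neurons) and NeuN- nuclei (mainly glia). The 4 genotypes were WT, single knockouts of Mutyh and of Ogg1, and their double knockout (DKO), which is without both Ogg1, the glycosylase that removes 8-oxoguanine from DNA, and Mutyh, which removes the adenine mispaired with it. DKO mice came from crosses of the single knockouts, and whether the WT mice were littermates of the knockouts is not given in the sources used here. Each genotype and fraction had 3 replicates, 24 libraries in all. The study speaks in general of independent biological replicates, but nuclei were pooled over animals, pool sizes differ between places in the methods, and how the 3 libraries of a group relate to the pools is not given. The p-values below measure the spread between these libraries, which may in part be technical.

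Mid1 encodes midline 1 (also called Trim18), a RING-finger E3 ubiquitin ligase that binds microtubules and, through the adaptor alpha4 (Igbp1), marks the catalytic subunit of protein phosphatase 2A for degradation. By way of this phosphatase it acts on mTOR signalling and on local protein synthesis in axons, and in people loss of MID1 causes Opitz syndrome, a disorder of midline development. In the house mouse the gene is unusual because it straddles the boundary of the pseudoautosomal region, the stretch in which chromosomes X and Y pair and recombine in males. Its first exons lie on the X-specific side and its later exons on the pseudoautosomal side, so a male carries copies of the later exons on both sex chromosomes.

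In GRCm38, the build used by the authors, Mid1 (ENSMUSG00000035299) lies on the plus strand of chromosome X at chrX:169685199-170005736, and its principal transcript, used below, has 10 exons and 3860 bases. The annotation (GENCODE vM21) places 5 genes inside it on the minus strand. G530011O06Rik (ENSMUSG00000072844, chrX:169975043-169978917, a processed transcript of 2 exons) has exon 4 of Mid1 within its intron. Gm15247 (ENSMUSG00000086695, chrX:169985801-169986939, an antisense transcript of 2 exons) overlaps exon 8 with its own last exon. Between them lies Gm15726 (chrX:169979047-169985232), whose span holds exons 5 to 7 and which was described with the pseudoautosomal genes, since the choice of members did not name it. The snoRNA Gm25651 and 4933400A11Rik lie further upstream, in introns. Of the 403 bases of Gm15247, 110 (27.3%) run across an exon of the principal transcript. Of the 2380 bases of G530011O06Rik, 0 do, but 951 (39.96%) run across exons of other annotated Mid1 transcripts, upstream of exon 4. The strand setting of the authors' counting is not given in the sources used here, and reads from these overlaps cannot be assigned to 1 strand from gene counts alone.

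**Figure D1:**
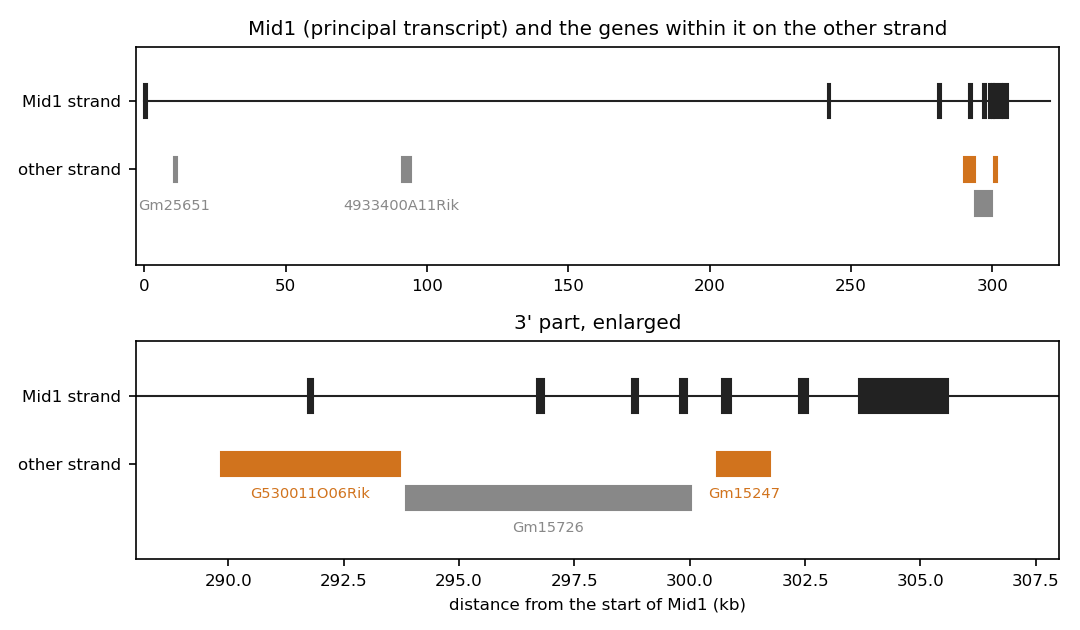
Mid1 and the 5 genes within it on the other strand, drawn by distance from the start of Mid1 in kb. Black boxes are the 10 exons of the principal transcript, orange boxes the whole spans of Gm15247 and G530011O06Rik, and grey boxes those of the other 3 genes; in the upper panel the smallest boxes are widened to stay visible, and the lower panel shows that the spans of Gm15247, G530011O06Rik and Gm15726 together hold exons 4 to 8.

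The sequence of the region sets what the counts can resolve. Exons 4 to 7 of Mid1 (bases 987 to 1515) matched the transcript of Mid1-ps1, the copy of Mid1 on chromosome Y, over 529 bases with 4 differing bases (99.2% identity). The transcript of Gm21742, a further gene on chromosome Y, matched the same 529 bases, also with 4 differing bases. Exons 8 to 10 (bases 1555 to 2273) matched that of Mid1-ps1 over 719 bases with 1 differing base (99.9%). No match of 200 bases or more at 97% identity or above was found for exons 1 to 3. The following stretch of 240 bases, from exons 5 to 7 of Mid1 (chrX:169981969-169985045, plus strand, introns left out), is shown because it holds all 4 bases that differ from Mid1-ps1 in the first match. Capitals mark them.
Mid1: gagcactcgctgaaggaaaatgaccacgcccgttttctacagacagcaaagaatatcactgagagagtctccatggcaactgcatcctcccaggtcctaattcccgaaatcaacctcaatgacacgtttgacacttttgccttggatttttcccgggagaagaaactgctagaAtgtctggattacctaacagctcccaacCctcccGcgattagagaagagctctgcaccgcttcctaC
Mid1-ps1: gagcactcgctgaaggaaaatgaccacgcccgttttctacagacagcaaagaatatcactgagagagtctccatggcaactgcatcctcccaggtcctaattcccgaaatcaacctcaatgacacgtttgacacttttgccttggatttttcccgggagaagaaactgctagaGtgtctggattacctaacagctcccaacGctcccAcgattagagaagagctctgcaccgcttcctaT
A read pair that lies wholly within a matched stretch and holds none of its differing bases fits both chromosomes equally, and how such pairs were counted is not given in the sources used here.

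G530011O06Rik also has copies. Bases 232 to 540 of its transcript were identical, over 309 bases, to transcripts of Gm21860 and Gm21748 on chromosome Y. RefSeq lists a second start of G530011O06Rik on Y, and the windows of 300 bases around both starts (chrX:169978868-169979167 and chrY:90755001-90755300, minus strand, GRCm38.p6) are shown since they differ so little. In an alignment of 298 columns, 292 were identical, 4 were substitutions and 2 were bases found in Y alone (97.99% identity). Capitals mark the differing bases.
G530011O06Rik, chromosome X: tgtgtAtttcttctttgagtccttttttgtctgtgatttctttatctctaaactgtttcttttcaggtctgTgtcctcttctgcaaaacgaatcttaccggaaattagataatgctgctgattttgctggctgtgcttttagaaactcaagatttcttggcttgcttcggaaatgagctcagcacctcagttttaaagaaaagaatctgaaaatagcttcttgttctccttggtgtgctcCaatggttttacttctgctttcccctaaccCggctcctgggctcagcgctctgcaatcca
G530011O06Rik, chromosome Y: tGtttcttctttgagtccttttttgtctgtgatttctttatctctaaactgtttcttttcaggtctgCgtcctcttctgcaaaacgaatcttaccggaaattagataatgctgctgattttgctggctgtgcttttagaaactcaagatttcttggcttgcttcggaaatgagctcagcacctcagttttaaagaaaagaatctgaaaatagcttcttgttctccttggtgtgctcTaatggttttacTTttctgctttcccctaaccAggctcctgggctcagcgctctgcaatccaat

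The first 300 bases of the Gm15247 transcript (between chrX:169985904 and chrX:169986939, minus strand, intron left out) are shown with the 103 bases that lie across a Mid1 exon in capitals. These are the bases at which a read without strand could stand for either gene.
Gm15247: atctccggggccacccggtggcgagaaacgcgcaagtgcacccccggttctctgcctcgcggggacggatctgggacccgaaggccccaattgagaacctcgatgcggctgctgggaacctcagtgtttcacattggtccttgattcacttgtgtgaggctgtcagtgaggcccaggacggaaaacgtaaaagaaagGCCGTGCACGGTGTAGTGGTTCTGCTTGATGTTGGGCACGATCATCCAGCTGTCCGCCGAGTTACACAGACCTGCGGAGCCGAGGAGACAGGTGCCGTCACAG

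Total counts per library ranged from 56563586 to 96192142 (median 70434612). Values are given as CPM, counts scaled to a library of 1000000 with TMM factors computed separately for NeuN+ and NeuN-, so levels are compared by CPM only within a fraction. Of the targeted genes, Mutyh RNA was higher in the libraries labelled Mutyh-/- and DKO than in WT, and Ogg1 RNA differed from WT by less than its spread in those labelled Ogg1-/- and DKO. Totals per gene cannot tell exons apart, the disrupted exons are not given in the sources used here, and genotypes are therefore named as labelled. The 4 genes of the Y chromosome outside the pseudoautosomal region (Ddx3y, Uty, Kdm5d and Eif2s3y) had summed levels of 172 to 198 CPM in NeuN+ and 203 to 230 CPM in NeuN-. In any knockout 0 of 4 were called (log2 fold change beyond 0.5 in size, with adjusted p below 0.05, by edgeR's quasi-likelihood test), with 0 to 3 at an unadjusted p under 0.05. Of all 30132 genes tested in NeuN+, 3718 to 5633 reached an unadjusted p under 0.05 against WT, depending on the knockout. Of the 31863 tested in NeuN-, 3768 to 4359 did. The share of all genes called lower than WT was 0.133% to 0.392% in NeuN+ and 0.0628% to 0.107% in NeuN-. A lack of calls among 4 genes therefore says little.

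In WT NeuN+ nuclei, Mid1 had 63.6, 74.0 and 68.0 CPM in replicates 1 to 3. The libraries labelled Mutyh-/- had 14.8, 14.9 and 13.5 CPM, those labelled Ogg1-/- had 13.4, 13.9 and 12.8 CPM, and those labelled DKO had 13.4, 13.2 and 15.7 CPM. All 9 knockout libraries thus lay far below all 3 WT libraries, and the ranges of the 3 knockouts overlapped each other. The members were chosen by low levels against WT, so their separation from WT, here and below, is no result in itself. How many of all genes separate in this way was not counted. Mid1 remained well measured in the knockouts, with 828 to 1324 counts per library, against 4284 to 4941 in WT. The mean level in a knockout was 21.0% of WT for Mutyh-/-, 19.5% for Ogg1-/- and 20.6% for DKO.

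In NeuN- nuclei, Mid1 had 82.3, 85.8 and 92.7 CPM in WT. It had 45.2, 47.6 and 37.6 CPM in Mutyh-/-, 56.1, 61.6 and 60.5 CPM in Ogg1-/-, and 44.3, 49.9 and 72.5 CPM in DKO. No knockout library reached the lowest WT library, but the remaining level was higher than in NeuN+, at 49.99% of WT in Mutyh-/-, 68.3% in Ogg1-/- and 63.9% in DKO. The log2 fold changes were -1.0 ± 0.15 (standard error) in Mutyh-/-, -0.55 ± 0.15 in Ogg1-/- and -0.65 ± 0.15 in DKO. The DKO libraries were spread widely, and without DKO replicate 3, the highest, the log2 fold change of DKO was -0.88.

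That library also held the most RNA of choroid plexus, the secretory epithelium of the ventricles. The summed level of the 5 choroid plexus markers was 8.66, 69.5 and 237 CPM in replicates 1 to 3 of DKO NeuN-, the same order as Mid1 in those libraries. It was 10.7, 99.8 and 106 CPM in Ogg1-/-, between 20.8 and 24.3 CPM in Mutyh-/-, and between 37.9 and 67.4 CPM in WT. The WT library with 37.9 CPM of these markers had 82.3 CPM of Mid1 and the DKO library with 69.5 CPM had 49.9 CPM of Mid1, and a part of these cells in the level of Mid1 was not tested. In sorted nuclei, fewer nuclei of a type and less RNA per nucleus cannot be told apart.

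Gm15247, the antisense gene nearest the 3′ end, was the most reduced of the 3. In NeuN+ it had 4.29, 5.29 and 4.85 CPM in WT, 0.31, 0.379 and 0.166 CPM in Mutyh-/-, 0.36, 0.199 and 0.214 CPM in Ogg1-/-, and 0.324, 0.645 and 0.295 CPM in DKO. The highest knockout library was thus well below the lowest WT library, and DKO replicate 2 stood above the other knockout libraries. These levels rest on 13 to 49 counts per knockout library, against 289 to 353 in WT. The log2 fold changes were -4.12 ± 0.28 in Mutyh-/-, -4.26 ± 0.27 in Ogg1-/- and -3.51 ± 0.25 in DKO (standard errors).

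In NeuN- nuclei, Gm15247 had 5.01, 4.87 and 5.09 CPM in WT. It had 0.892, 1.12 and 0.718 CPM in Mutyh-/-, 0.933, 0.69 and 0.841 CPM in Ogg1-/-, and 1.1, 1.2 and 0.875 CPM in DKO. WT and knockout libraries did not overlap, and the 3 knockouts did. The mean level was between 16.5% of WT in Ogg1-/- and 21.2% in DKO, compared with 5.36% and 8.76% of WT in NeuN+ of the same genotypes. Its WT libraries differed little from each other in NeuN- (SD 0.113 CPM).

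G530011O06Rik, whose intron lies over exon 4 of Mid1, had 8.66, 11.4 and 10.1 CPM in WT NeuN+ nuclei. It had 1.55, 1.19 and 1.72 CPM in Mutyh-/-, 0.915, 1.49 and 1.02 CPM in Ogg1-/-, and 1.59, 1.33 and 1.08 CPM in DKO. Each knockout library was at or below 1.72 CPM, and replicate 2 of Ogg1-/- stood above the other libraries of its genotype. The log2 fold changes were -2.75 ± 0.18, -3.12 ± 0.18 and -2.92 ± 0.18 in Mutyh-/-, Ogg1-/- and DKO. They lay between those of Mid1 and those of Gm15247 in each genotype.

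In NeuN-, G530011O06Rik had 10.03, 11.8 and 11.3 CPM in WT. It had 3.91, 3.18 and 3.20 CPM in Mutyh-/-, 3.4, 3.11 and 3.21 CPM in Ogg1-/-, and 3.91, 3.25 and 2.74 CPM in DKO. The 3 knockouts were close to each other, with means of 31.0%, 29.3% and 29.8% of WT, and none of their libraries overlapped WT. DKO replicate 3, the highest for Mid1, was the lowest for G530011O06Rik.

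**Figure D2:**
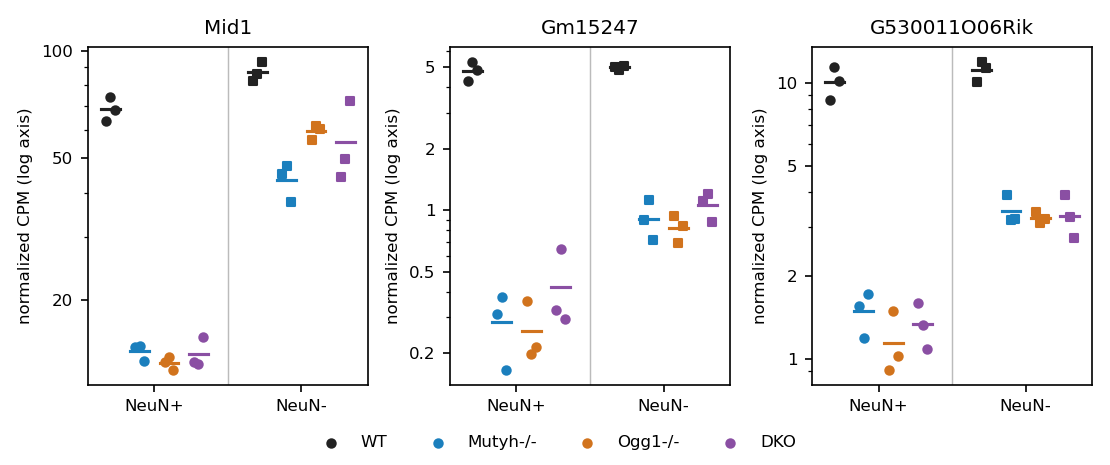
Normalized CPM (log axis) of Mid1, Gm15247 and G530011O06Rik in the 24 libraries; points are libraries (circles NeuN+, squares NeuN-), lines are group means, and colours are genotypes. For each gene and fraction all 9 knockout libraries lie below the 3 WT libraries, and for Mid1 the knockout libraries lie nearer to WT in NeuN- (37.6 to 72.5 CPM) than in NeuN+ (12.8 to 15.7 CPM). The genes were chosen by their low log2 fold changes against WT.

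With the counts of the 3 genes added into 1, the log2 fold changes were -2.37, -2.50 and -2.39 in NeuN+ and -1.11, -0.70 and -0.78 in NeuN- of Mutyh-/-, Ogg1-/- and DKO. These sums do not depend on which of the 3 genes a counted read was assigned to.

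**Figure D3:**
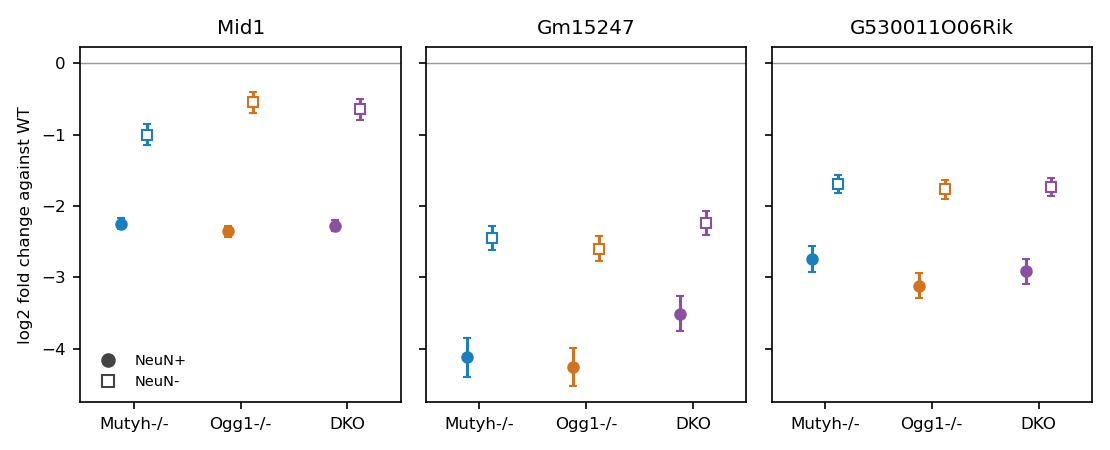
Log2 fold change of each knockout against WT for the 3 genes, with bars of 1 standard error; filled circles are NeuN+ and open squares NeuN-. All 18 values are below 0, those of NeuN+ from -4.26 to -2.25 and those of NeuN- from -2.60 to -0.55.

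Whether the 3 knockouts differed from each other was tested. Those comparisons did not choose the genes, but the low levels of the same knockout libraries did. Genes chosen in this way can look alike between knockouts, so a lack of calls is no evidence that the knockouts are alike. In NeuN+, 0 of 9 comparisons of members between knockouts were called, against 0.485% of all genes between Ogg1-/- and Mutyh-/-, 0.139% between DKO and Mutyh-/- and 0.216% between DKO and Ogg1-/-. An unadjusted p under 0.05 was reached in 1 of 9, and DESeq2 gave the same counts of calls and of unadjusted p. Of all 30132 genes, 3816, 2066 and 1285 reached it by edgeR in the same 3 comparisons. Mid1 differed by -0.11 between Ogg1-/- and Mutyh-/- (edgeR quasi-likelihood, Benjamini-Hochberg adjusted p = 0.593, 95% interval -0.26 to 0.04), by -0.03 between DKO and Mutyh-/- (-0.18 to 0.12) and by 0.08 between DKO and Ogg1-/- (-0.07 to 0.23). These intervals, and those below for differences between knockouts, take the standard error as normal. They are narrower than the quasi-likelihood test implies and can exclude 0 where its unadjusted p is above 0.05. The intervals of the antisense genes were wider, as for Gm15247 between DKO and Ogg1-/-, with a difference of 0.75 (95% interval 0.08 to 1.42, adjusted p = 0.9998).

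In NeuN-, 0 of 9 were called as well, with 0.521%, 0.122% and 0.132% of all genes called in the same 3 comparisons. Of all 31863 genes, 3652, 3507 and 1383 had an unadjusted p under 0.05 by edgeR. Of the comparisons of members, 2 of 9 had an unadjusted p under 0.05 in both tests, and both of these concern Mid1. By edgeR it was higher in Ogg1-/- than in Mutyh-/- by 0.45 ± 0.15 (adjusted p = 0.239) and in DKO than in Mutyh-/- by 0.35 ± 0.15 (adjusted p = 0.419). Without DKO replicate 3, whose spread enters the fit, the adjusted p of the first was 0.0272 with a difference of 0.46, which is under the size threshold. The second difference was 0.11 without that library. With it, the libraries of DKO (44.3 to 72.5 CPM) and Mutyh-/- (37.6 to 47.6 CPM) overlapped. G530011O06Rik differed between knockouts by no more than -0.08 in NeuN-, with normal 95% intervals within -0.34 to 0.29.

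Next, the fractions were compared within each genotype, in a fit of all 24 libraries with 33523 genes and thresholds of 0.05 for the adjusted p and 1 for the size of the log2 difference. Per the labels, each fraction had its own sequencing lanes, so that lane and fraction cannot be told apart. In WT, 0 of 3 were called, whereas 42.9% of all genes were called. The WT libraries were the reference in the choice of the genes in both fractions, and a low fold change against WT needs a measurable WT level. The choice can thus favour like levels in WT, so this lack of calls is no evidence that the fractions are alike. Mid1 differed by -0.10 ± 0.12 (NeuN+ minus NeuN-, adjusted p = 0.464), Gm15247 by 0.19 ± 0.20 (adjusted p = 0.394) and G530011O06Rik by 0.11 ± 0.15 (adjusted p = 0.535). By edgeR's quasi-likelihood test and by DESeq2, 0 of 3 had an unadjusted p under 0.05, against 24892 of all 33523 genes by edgeR.

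In the knockouts, whose low levels chose the genes, the differences between fractions are given as a description, without a test. The log2 differences (NeuN+ minus NeuN-) of Mid1 were -1.36 ± 0.13 for Mutyh-/-, -1.90 ± 0.13 for Ogg1-/- and -1.72 ± 0.13 for DKO (standard errors). Those of Gm15247 were -1.49 ± 0.29, -1.46 ± 0.29 and -1.08 ± 0.26 in the same order. For G530011O06Rik they were -0.96 ± 0.18, -1.23 ± 0.18 and -1.07 ± 0.18.

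As a description of how the genotype effects compared between fractions, the effect in NeuN+ minus that in NeuN- was -1.68 ± 0.35, -1.65 ± 0.35 and -1.27 ± 0.33 for Gm15247 and -1.07 ± 0.23, -1.34 ± 0.24 and -1.17 ± 0.23 for G530011O06Rik in Mutyh-/-, Ogg1-/- and DKO. For both genes the estimates in the knockouts thus lay further below WT in NeuN+ than in NeuN-.

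The counts of the antisense genes also fell relative to those of Mid1. In WT NeuN+, Gm15247 and G530011O06Rik together made up 16.9%, 18.4% and 18.02% of the counts of the 3 genes (17.8% ± 0.783, SD, n = 3). They made up 10.96% ± 1.36 in Mutyh-/-, 9.45% ± 1.21 in Ogg1-/- and 11.2% ± 2.72 in DKO. In NeuN- the share was 15.6% ± 0.639 in WT, 9.11% ± 0.716 in Mutyh-/-, 6.42% ± 0.686 in Ogg1-/- and 7.70% ± 2.74 in DKO. The highest knockout library, with 12.99%, was below the lowest WT library, with 15.04%. The lowest share of all, 4.75%, was that of DKO NeuN- replicate 3 (223 antisense counts and 4472 of Mid1, exact 95% binomial interval 4.16 to 5.40, counting error only). Without strand, part of these counts could stem from either strand, so the share is one of counts and not of transcripts.

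**Figure D4:**
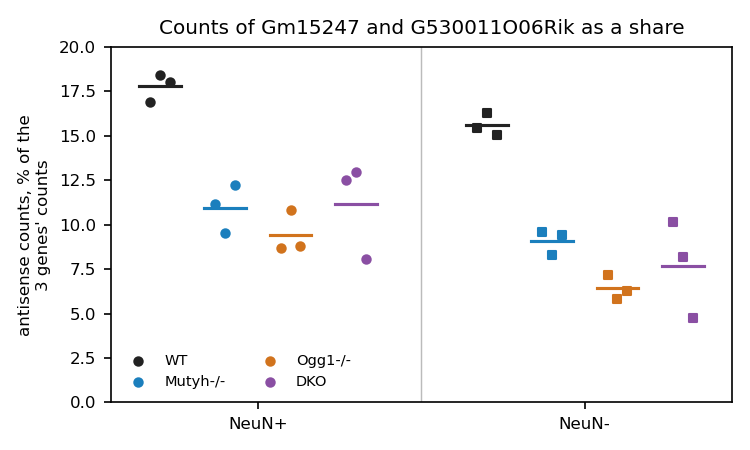
Counts of Gm15247 and G530011O06Rik as a percentage of the counts of the 3 genes, per library (points) with group means (lines), in NeuN+ (circles) and NeuN- (squares). The 6 WT libraries lie between 15.04% and 18.4% and the 18 knockout libraries between 4.75% and 12.99%.

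Compared per length, the genes were of similar order in WT. Per kilobase of exon and 1000000 counts (FPKM, computed from the counts and the annotated exon length), Gm15247 had 11.9 ± 1.24, Mid1 10.2 ± 0.774 and G530011O06Rik 4.23 ± 0.581 FPKM in WT NeuN+ (SD, n = 3). In NeuN- of WT, Mid1 had 12.9 ± 0.785 and Gm15247 12.4 ± 0.281 FPKM, which differed by less than the spread of Mid1, and G530011O06Rik had 4.65 ± 0.391 FPKM. In the knockouts of NeuN+ Mid1 had 1.99 to 2.15 FPKM, and both antisense genes were lower than Mid1 there, Gm15247 with 0.639 to 1.05 FPKM and G530011O06Rik with 0.48 to 0.624 FPKM.

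The genes around Mid1 were then examined. Most genes of the pseudoautosomal region and their copies on Y were lower than WT in NeuN+. Of 12 listed, 7 were found by symbol, and 6 passed the low-count filter in NeuN+ and 7 in NeuN-. In NeuN+, all 6 were called lower in Ogg1-/-, and 4 of 6 both in Mutyh-/- and in DKO. Of all 30132 genes tested there, 0.133% were called lower in Mutyh-/-, 0.392% in Ogg1-/- and 0.246% in DKO. In the order Mutyh-/-, Ogg1-/- and DKO the list had medians of -1.88, -3.30 and -3.37 (log2), where the medians of all genes were -0.01, 0.01 and 0.00. In NeuN-, 4 of 7 were called lower in Ogg1-/-, and 1 of 7 both in Mutyh-/- and in DKO, where 0.1%, 0.107% and 0.0628% of all 31863 genes were called lower. The medians in NeuN-, in the order Mutyh-/-, Ogg1-/- and DKO, were -0.49, -1.90 and -1.76. None was called higher, by edgeR's quasi-likelihood test. The list was written with earlier results of these data known, and several of its genes share sequence with Mid1 or with G530011O06Rik. Gm15726 lies within Mid1, with 144 of its 509 bases across Mid1 exons. The calls and p-values of this list, here and below, are therefore no separate support for the low levels of the members.

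Gm15726, the antisense gene between the other two, had 15.7 to 19.5 CPM in the 6 WT libraries. In NeuN+ it had 0.832, 1.26 and 0.461 CPM in Mutyh-/-, 1.12, 0.335 and 1.11 CPM in Ogg1-/-, and 1.83, 1.80 and 1.11 CPM in DKO. It was thus lower than WT in every knockout library, by -4.42 ± 0.32, -4.39 ± 0.31 and -3.48 ± 0.29 on the log2 scale (adjusted p = 2.87e-06, 5.05e-07 and 1.35e-05 from edgeR's quasi-likelihood test). In NeuN- the differences were -2.99 ± 0.49, -2.65 ± 0.48 and -2.07 ± 0.46 (adjusted p = 0.0213, 0.0409 and 0.119). The call in Ogg1-/- NeuN- was lost in 9 of the 12 fits without 1 library (all but those without Mutyh-/- replicate 2 or 3 or DKO replicate 3, -3.05 to -2.22) and that in Mutyh-/- NeuN- without WT replicate 1, 2 or 3 or Mutyh-/- replicate 1 (-3.05 to -2.82).

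Mid1-ps1, the copy on chromosome Y, was also lower in the knockouts. In NeuN+ it had 33.9, 44.0 and 36.4 CPM in WT, 9.36, 5.64 and 10.4 CPM in Mutyh-/-, 1.87, 6.14 and 1.96 CPM in Ogg1-/-, and 2.62, 2.63 and 4.42 CPM in DKO. The Ogg1-/- and DKO libraries lay below those of Mutyh-/- apart from Ogg1-/- replicate 2, while the differences of Mid1-ps1 between knockouts were not called (-1.32 ± 0.35 between Ogg1-/- and Mutyh-/-, adjusted p = 0.131). The log2 fold changes of Mid1-ps1 were -2.16 ± 0.33, -3.48 ± 0.35 and -3.55 ± 0.36 (adjusted p = 0.00452, 4.32e-05 and 1.21e-04). In NeuN- they were -0.99 ± 0.29, -1.90 ± 0.30 and -2.04 ± 0.30 (adjusted p = 0.194, 0.0141 and 0.0173), and the NeuN- calls of Mid1-ps1 were lost without WT replicate 1 or 2 or Ogg1-/- replicate 1 or 3 in Ogg1-/- (-1.95 to -1.70) and without WT replicate 1, 2 or 3 or DKO replicate 1 or 2 in DKO (-2.10 to -1.90).

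Gm21860 and Gm21748, the Y transcripts that share 309 bases with G530011O06Rik, were lower in NeuN+ as well, with -1.88, -3.38 and -3.62 for Gm21860 and -1.88, -3.22 and -3.26 for Gm21748 in Mutyh-/-, Ogg1-/- and DKO, each called. The call of Gm21860 in Mutyh-/- was lost without WT replicate 1 or 2 or Mutyh-/- replicate 1 or 2 (-1.94 to -1.64). In NeuN- neither was called, with -0.39, -1.79 and -1.96 for Gm21860 (adjusted p from 0.0619 to 0.657) and -0.59, -1.76 and -1.76 for Gm21748 (adjusted p from 0.0507 to 0.438). Without DKO replicate 3, both were called lower in Ogg1-/- (-1.78 and -1.75) and in DKO (-2.41 and -2.27) of NeuN-.

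Erdr1 (erythroid differentiation regulator 1) and Gm47283 had their lowest levels in Ogg1-/-. The annotation places Gm47283 on chromosome Y and gave no position for Erdr1. In NeuN+ Erdr1 had 83.9 to 110 CPM in WT, 81.5 to 121 CPM in Mutyh-/- and 70.6 to 79.8 CPM in DKO, but 22.6, 32.9 and 5.73 CPM in Ogg1-/-. Gm47283 had 254 to 310 CPM in WT and 42.7, 55.8 and 10.5 CPM in Ogg1-/-. Both were called lower than WT in Ogg1-/-, with log2 fold changes of -2.21 ± 0.38 and -2.92 ± 0.39 in NeuN+ (adjusted p = 0.0122 and 0.00112) and -2.30 ± 0.37 and -2.92 ± 0.40 in NeuN- (adjusted p = 0.0184 and 0.00489). In DKO, which lacks Ogg1 as well, the log2 fold changes were -0.33 ± 0.36 for Erdr1 and -1.40 ± 0.37 for Gm47283 in NeuN+ (adjusted p = 0.738 and 0.112), and without Ogg1-/- replicate 3 Gm47283 was called in DKO too (-1.40, adjusted p = 6.30e-04). Erdr1 was lower in Ogg1-/- than in Mutyh-/- (-2.31 ± 0.38, adjusted p = 0.00661), while its difference between DKO and Ogg1-/- was not called (1.88 ± 0.37, adjusted p = 0.0595). The call of Erdr1 was lost without WT replicate 2 in NeuN+ (-2.08) and without WT replicate 1 or 2 or Ogg1-/- replicate 1 in NeuN- (-2.42 to -2.26).

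**Figure D5:**
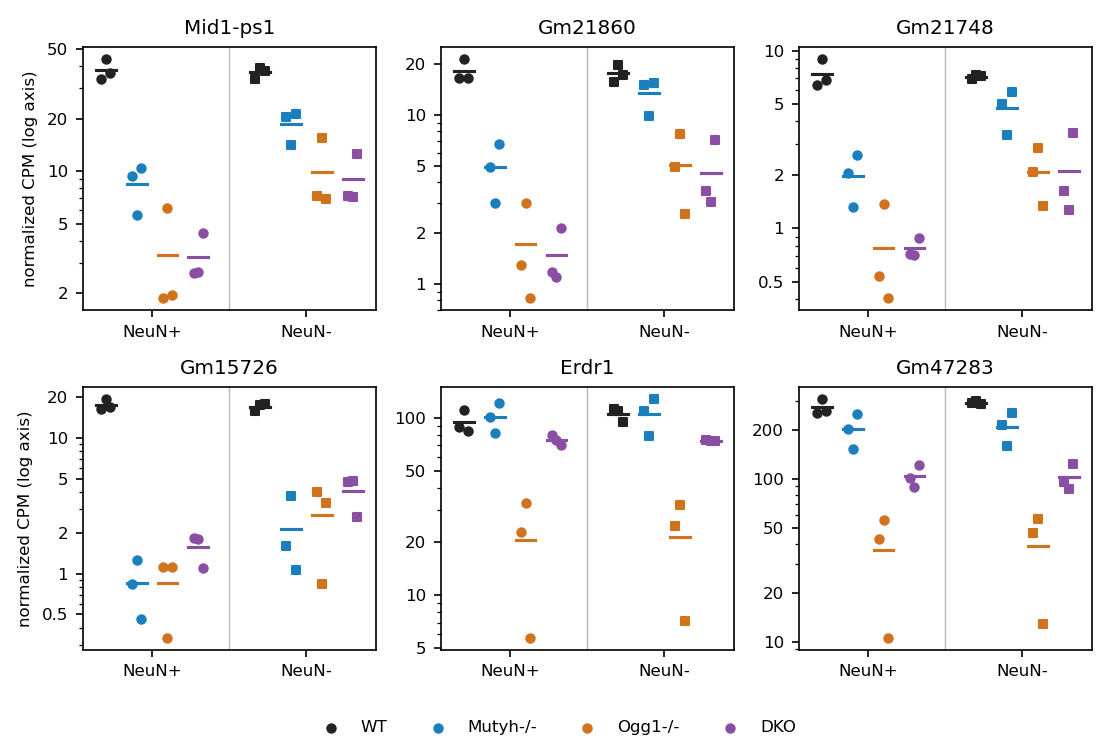
Normalized CPM (log axis) of Gm15726, of 3 Y genes with sequence shared with Mid1 or G530011O06Rik (Mid1-ps1, Gm21860 and Gm21748), of Erdr1 and of Gm47283 in the 24 libraries; points are libraries (circles NeuN+, squares NeuN-) and lines group means. The Ogg1-/- library at 5.73 CPM of Erdr1 in NeuN+ and the one at 7.14 CPM in NeuN- carry the same replicate number.

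Libraries of 1 genotype differed from each other in these genes in the same way in both fractions. As a description, the deviation of a library from its group mean (log2 CPM) in NeuN+ was correlated with that of the NeuN- library of the same genotype and number, with r = 0.99 for Gm47283, 0.99 for Erdr1, 0.98 for Gm15726, 0.98 for Mid1-ps1, 0.94 for Gm21860 and 0.73 for Gm21748 (Pearson, n = 12 pairs from 4 genotypes whose means were taken out). For the members it was 0.77 for Mid1, 0.83 for Gm15247 and 0.46 for G530011O06Rik. The SD of these deviations was 0.09 in NeuN+ and 0.18 in NeuN- for Mid1, 0.39 and 0.19 for Gm15247 and 0.24 and 0.14 for G530011O06Rik, against 0.54 and 0.68 for Gm15726. The sources used here do not say whether libraries of the same number came from the same animals.

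The X-specific side was examined next. Of 14 neighbours of Mid1 on chromosome X, all tested, 0 were called in Mutyh-/- NeuN+, 1 in Ogg1-/- and 1 in DKO, with medians of -0.10, -0.05 and -0.10, and 0 in any knockout of NeuN- (medians from -0.03 to 0.05). An unadjusted p under 0.05 was reached by 2 or 3 of the 14 in each comparison, and DESeq2 called the same numbers. Among all genes tested it was reached by 3718 to 5633 of 30132 in NeuN+ and by 3768 to 4359 of 31863 in NeuN-. The gene called was Tmsb4x, which encodes thymosin beta 4, an actin-sequestering peptide. In NeuN+ it had 32.5, 34.7 and 33.0 CPM in WT, 24.3, 20.6 and 18.5 CPM in Ogg1-/- and 23.6, 23.3 and 18.7 CPM in DKO, differences of -0.66 ± 0.12 and -0.61 ± 0.12 (adjusted p = 0.0195 and 0.0404 from edgeR's quasi-likelihood test). The call was lost in 5 of 12 fits without 1 library in Ogg1-/- (WT replicates 1, 2 and 3, Ogg1-/- replicates 2 and 3) and in 7 of 12 in DKO (WT replicates 1, 2 and 3, Mutyh-/- replicate 1, Ogg1-/- replicate 2, DKO replicates 2 and 3), with differences from -0.68 to -0.51. Frmpd4, a postsynaptic scaffold protein gene at the same end of X, and Gpm6b, a membrane glycoprotein gene, had the highest levels of the list and differed from WT by between -0.27 and 0.26 (adjusted p from 0.304 to 0.997). Within 2 Mb of Mid1 on either side, the members left out, 15 of 25 annotated genes were tested in NeuN+ and 14 in NeuN-. Of those tested, Gm15726 was the only gene called in any knockout.

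Genes of proteins that work with Mid1 were also measured. The list of 16 holds its paralog Mid2, the adaptor Igbp1, subunits of protein phosphatase 2A, parts of the mTOR and hedgehog pathways, and Mid1ip1, all of which were tested. Eef1a1, which encodes a translation elongation factor, was called lower in Ogg1-/- NeuN+ (-0.61 ± 0.12, adjusted p = 0.0286), and no other gene of the list was called in any knockout or fraction, although 4 to 8 of the 16 had an unadjusted p under 0.05. In DKO NeuN+, 1 of the 16 was called by DESeq2. Of all genes tested, 3718 to 5633 of 30132 had an unadjusted p under 0.05 in NeuN+. In NeuN- these were 3768 to 4359 of 31863. The share of all genes called lower was 0.133% to 0.392% in NeuN+ and 0.0628% to 0.107% in NeuN-. Eef1a1 had 77.1, 81.1 and 81.1 CPM in WT and 59.7, 52.0 and 45.8 CPM in Ogg1-/-, and its call was lost in 5 of 12 fits without 1 library (WT replicates 1, 2 and 3, Ogg1-/- replicates 2 and 3; -0.63 to -0.52). Medians of the list lay between -0.06 and -0.02. Rptor and Mtor, parts of the mTOR complex, differed from WT by between -0.04 and 0.10 (adjusted p from 0.251 to 0.933). Of the 5 other genes of the TRIM class of Mid1 (Mid2, Trim9, Trim36, Trim46 and Trim67), which share its COS box for binding microtubules, 0 were called by edgeR's quasi-likelihood test or by DESeq2, and their medians lay between -0.23 and 0.05. Those with an unadjusted p under 0.05 numbered from 0 in Ogg1-/- NeuN+ to 5 in Ogg1-/- NeuN-. Among all genes, these 2 comparisons had 3718 of 30132 and 3768 of 31863. At the shares of all genes called lower given above, 0 of 5 does not set this class apart.

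The genes with the pattern most like that of Mid1 were listed by Pearson's r of log2 CPM over the 12 libraries of a fraction. These share their WT libraries and their lanes. Group means were left in, so r includes the difference between WT and knockouts by which the members were chosen. The ranks of the members are therefore a description and no test. In NeuN+, G530011O06Rik ranked first of 30131 genes (r = 0.98) and Gm15247 second (r = 0.97), followed by Selenoh (0.95), Kif1b (0.94) and Slc5a5 (0.94), and Gm15726 ranked 6th (0.93). The lowest values were those of Recql5 (-0.94), Gm5784 (-0.93) and Aopep (-0.93). The size of change differed, since Kif1b, a kinesin motor gene, differed from WT by only -0.18, -0.16 and -0.18. In NeuN-, where Mid1 was less reduced, the antisense genes were not the closest, and Gm15247 ranked 107th of 31862 (r = 0.76) and G530011O06Rik 191st (0.73). Sec23a (0.95), Clic5 (0.92), Gm12693 (0.91), Tshz3 (0.91) and Gm5242 (0.90) came first, and Gm12867 (-0.93), Gm12576 (-0.87) and Sh3bp2 (-0.87) last. Mid1-ps1 had r = 0.89 (rank 32) in NeuN+ and 0.53 (rank 1546) in NeuN-.

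Levels of markers of cell types were compared to see whether the mix of nuclei moved with these genes. Of the neuronal, astrocyte, oligodendrocyte, oligodendrocyte precursor, microglial, endothelial and choroid plexus markers, Aldh1l1, an astrocyte gene, was the only gene called, as higher in Ogg1-/- NeuN- (0.52 ± 0.10, adjusted p = 0.0483). In both fractions, however, whole lists lay to 1 side of WT. In NeuN+, all 6 astrocyte markers (-0.63 to -0.002) and all 3 precursor markers (-0.57 to -0.14) were lower in each knockout. In a knockout there, 0 or 1 and 0 to 2 of these had an unadjusted p under 0.05. In NeuN-, all 5 choroid plexus markers were lower in Mutyh-/- (-1.48 to -0.36). They were higher in Ogg1-/- (0.31 to 0.72) and DKO (1.07 to 1.27), with 0 of 5 at an unadjusted p under 0.05 in any knockout. Some other short lists also lay to 1 side. Of all 31863 genes tested in NeuN-, 3768 in Ogg1-/- and 3940 in DKO had an unadjusted p under 0.05. All 6 astrocyte markers were higher in NeuN- of Ogg1-/- (log2 fold changes of 0.16 to 0.52) and of DKO (0.13 to 0.51). In each, 4 of 6 had an unadjusted p under 0.05. Their summed level in NeuN- was 3038 to 3615 CPM in WT, 3547 to 4465 CPM in Ogg1-/- and 3786 to 3946 CPM in DKO. All 5 oligodendrocyte markers were lower in NeuN- of Ogg1-/- (-0.43 to -0.06) and of DKO (-0.48 to -0.10), with 2 of 5 at an unadjusted p under 0.05 in each. They summed to 6491 to 7239 CPM in WT, 5510 to 6127 CPM in Ogg1-/- and 4913 to 6067 CPM in DKO.

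All 8 neuronal markers were lower in DKO NeuN- (-0.58 to -0.03), and 5 of 8 had an unadjusted p under 0.05, against 3940 of all 31863 genes. All 8 were also lower in Mutyh-/- NeuN- (-0.32 to -0.02), with 2 of 8 at an unadjusted p under 0.05, against 4359 of all genes. The sums of these markers overlapped, with 679 to 763 CPM in WT and 613 to 690 CPM in DKO. In NeuN+, between 3 and 5 of the 8 neuronal markers had an unadjusted p under 0.05 in a knockout, against 3718 to 5633 of all 30132 genes. The summed level of the markers was 4662 to 4960 CPM in WT and 4734 to 5455 CPM in the knockouts. The part of cell mix in the levels of Mid1 and its antisense genes was not tested otherwise.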

How the data were processed

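RNA of sorted nuclei was sequenced by the authors with a SMARTer stranded total RNA kit on an MGISEQ2000. Reads were aligned with HISAT2 2.1.0 to GRCm38 and counted per gene with featureCounts; strand, overlap and multimapping settings are not given in the sources used here. The deposited values are raw counts per gene, used as deposited. Groups followed the labels, with 3 libraries each, and p-values measure the spread between these libraries. The members and gene lists were chosen with earlier results of these data known. Genes named beyond the members came from those lists and from the 5 highest and 3 lowest correlations with Mid1.

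Counts were fitted with edgeR 4.0.16 (TMM, filterByExpr, quasi-likelihood test, Benjamini-Hochberg adjustment over all genes tested) in R 4.3.3, for each fraction (12 libraries) and for all 24 libraries to compare fractions. Correlations used log2 CPM with a prior count of 2. Copies were sought with BLAST. Alternatives were DESeq2 1.42.0, its size factors, other count filters, a replicate block, the 3 genes summed, and each library left out. The script was tested on simulated data. Numbers were taken as pairs only if every same-numbered pair of both fractions deviated together (r above 0.1). This held in 8 of 12 pairs (mean r 0.142, against -0.0702 with other numbers), so the main fits had no block, although 11 of 12 libraries correlated best with their own number. The main fit of all 24 libraries thus took libraries of the same number in both fractions as independent. If they share animals, its p-values do not allow for that.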

Additional observations from a re-analysis of the deposited data

Results flagged for a closer look

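One result on a targeted gene differed between fractions. Mutyh RNA was higher than in WT in the libraries labelled Mutyh-/- and DKO, by 3.15 and 2.99 on the log2 scale in NeuN+ and by 1.85 and 1.61 in NeuN-. The difference between fractions in this effect was 1.28 in Mutyh-/- (adjusted p = 0.0110) and 1.40 in DKO (adjusted p = 0.00184), from the interaction term of edgeR's quasi-likelihood test over 33523 genes. Mutyh had 1.05 to 1.18 CPM in WT NeuN+, 9.06 to 10.7 in Mutyh-/- and 7.74 to 11.1 in DKO. In NeuN- it had 2.60 to 3.07, 10.1 to 10.5 and 7.21 to 10.1 CPM. The effect is relative to WT of its own fraction, and the differences of Mutyh between fractions within WT or within a knockout are not given here. Groups of 3 libraries were too small to screen for single outlying libraries.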

How the results depend on the processing

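Leaving out libraries aside, no alternative changed a direction of a member, its calls between knockouts or those between fractions in WT. The 3 genes summed gave -2.50 (NeuN+) and -0.70 (NeuN-) in Ogg1-/- against WT. DKO against WT in NeuN-, pseudoautosomal genes called were 4 without a filter and 5 by DESeq2, against 1; in NeuN+, Mid1 partners called were 1 without a filter, 1 with a replicate block and 1 by DESeq2, against 0. The replicate block changed no call of a member. The cause was not tested.

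Leaving out 1 library at a time, differences between knockouts near 0 changed sign. In NeuN+ these ranged from -0.11 to 0.018 for Mid1 (DKO minus Mutyh-/-), -0.0043 to 0.13 for Mid1 (DKO minus Ogg1-/-) and -0.46 to 0.11 for Gm15247 (Ogg1-/- minus Mutyh-/-). In NeuN- they ranged from -0.34 to 0.042 for Mid1 (DKO minus Ogg1-/-), -0.29 to 0.037 for Gm15247 (Ogg1-/- minus Mutyh-/-), and for G530011O06Rik -0.13 to 0.026 (Ogg1-/- minus Mutyh-/-), -0.20 to 0.069 (DKO minus Mutyh-/-) and -0.11 to 0.14 (DKO minus Ogg1-/-). Between fractions in DKO, the ranges were -1.52 to -0.87 for Gm15247 and -1.21 to -0.92 for G530011O06Rik. Calls ranged from 0 to 1 for X neighbours and for Mid1 partners in Ogg1-/- and DKO of NeuN+, and for pseudoautosomal genes in NeuN- from 0 to 1 for Mutyh-/-, 1 to 6 for Ogg1-/-, and 0 to 3 for DKO. Gm15247 rests on 13 to 49 counts in knockout NeuN+ libraries, which limits its precision.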
